A study of Mus musculus with 8 samples.

Results

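The genes described here are 10 immediate early and heat shock genes, Fos, Fosb, Jun, Junb, Egr1, Ier2, Atf3, Dusp1, Hspa1a and Hspa1b. They were chosen by name as a check on handling stress and on the loss of short genes, and their Ensembl gene IDs were looked up in the mRNA table. All 10 were found among its 29639 entries. The table comes from RNA of whole mouse embryos of 4 genotypes, some of which carried polyA cassettes, which make transcription stop short, in the promoter of Gtl2. Gtl2 (Meg3) is a non-coding RNA gene in an imprinted domain, Dlk1-Dio3, and is read from the chromosome inherited from the mother. PKI embryos carried the cassettes on the paternal copy, MKI embryos on the maternal copy and HOMO embryos on both, while WT embryos carried none. The alleles were made with Easi-CRISPR, a method that inserts a long single-stranded DNA donor with Cas9. The labels state neither strain nor sex nor litter. The design text gives embryonic day 12.5 for all embryos, whereas the days in the sample titles differ by fractions of a day between genotypes and run highest in HOMO.

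The labels list 8 samples, 2 per genotype, but each table holds 1 column per genotype. Whether a column is 1 library or a combination of both is not known. Every value below is therefore a single column, no spread within a genotype can be given, and no test was possible. A difference is the log2 of (FPKM + 0.5) in one column minus that in another, where FPKM is a fragment count scaled to transcript length and library size. It understates the fold of genes at low levels, and linear ratios are given where they help. The columns also differed in Y-linked signal: 4 genes of the Y chromosome (Ddx3y, Uty, Kdm5d and Eif2s3y), which only male tissue expresses, lay between 7.12 and 29.7 FPKM over PKI, MKI and HOMO and were listed at 0 in WT, so genotype and sex cannot be told apart in comparisons with WT.

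Immediate early genes are transcribed within minutes of a growth factor, stretch, wounding or cell dissociation, without new protein synthesis. Existing factors such as serum response factor and CREB switch them on, and their mRNAs are short-lived. In heat shock and proteotoxic stress, heat shock factor 1 switches on the inducible HSP70 genes in a similar way. Both groups are used as signs of how tissue was handled before RNA was extracted. Most of the 10 genes have a short gene span, introns included, so they are also set beside other genes of short span. The length of the transcripts themselves was not measured.

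Most of the 10 genes stood at low levels in these embryos, and 3 of them carried nearly all of the signal. Jun, Ier2 and Dusp1 made up 90.4% of the summed FPKM of the 10 genes in PKI, 87.7% in MKI, 87.7% in HOMO and 89.6% in WT. The sum itself was 45.7 FPKM in PKI, 20.2 FPKM in MKI, 52.8 FPKM in HOMO and 45.9 FPKM in WT. The MKI column was thus lower than the other 3, which lay close together. Only Jun, Ier2, Dusp1, Egr1 and Hspa1b reached 1 FPKM in at least 2 columns, the filter used for the background of all genes. The other 5 did not pass it and are reported without it.

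**Figure D1:**
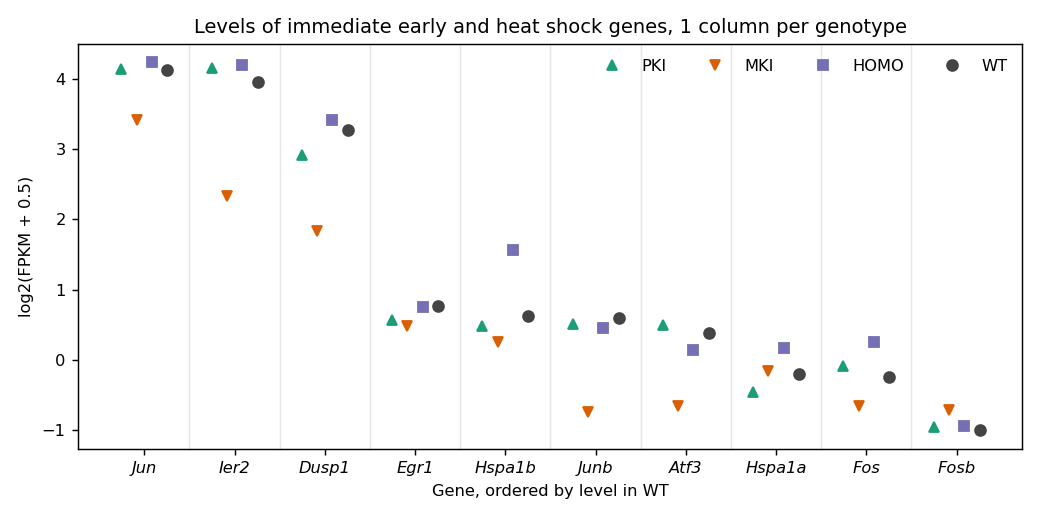
Levels of the 10 genes as log2(FPKM + 0.5), genes ordered by their WT level, with 1 point per genotype column (PKI, MKI, HOMO and WT from left to right within each gene). The MKI points of Ier2 (4.54 FPKM), Dusp1 (3.07 FPKM), Junb (0.101 FPKM) and Atf3 (0.137 FPKM) lie below the other 3, and Hspa1b is highest in HOMO (2.47 FPKM).

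The 250 bases before the transcription start are shown for 5 of the genes. They were searched for known promoter elements, and they show how alike the 2 HSP70 copies are. Sequences are RefSeq promoters of build GRCm38.p6, and 8 of the 10 genes had an entry (not Egr1 and Ier2). Capitals mark matches, on either strand, to the CRE core TGACGT bound by CREB and ATF factors, the TATA box TATAAA, the CCAAT box CCAAT and the pair of heat shock units GAANNTTC.

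Fos, chr12:85473640-85473889, plus strand: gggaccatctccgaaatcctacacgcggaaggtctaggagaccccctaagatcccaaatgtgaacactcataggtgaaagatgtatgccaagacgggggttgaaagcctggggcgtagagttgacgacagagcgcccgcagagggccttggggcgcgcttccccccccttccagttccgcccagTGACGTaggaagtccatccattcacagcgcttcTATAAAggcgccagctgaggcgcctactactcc

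Dusp1, chr17:26508473-26508722, minus strand: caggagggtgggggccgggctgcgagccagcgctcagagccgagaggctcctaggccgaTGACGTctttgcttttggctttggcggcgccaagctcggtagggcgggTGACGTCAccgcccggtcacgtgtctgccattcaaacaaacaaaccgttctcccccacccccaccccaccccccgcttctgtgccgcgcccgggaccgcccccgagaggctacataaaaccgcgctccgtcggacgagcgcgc

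Junb, chr8:84978749-84978998, minus strand: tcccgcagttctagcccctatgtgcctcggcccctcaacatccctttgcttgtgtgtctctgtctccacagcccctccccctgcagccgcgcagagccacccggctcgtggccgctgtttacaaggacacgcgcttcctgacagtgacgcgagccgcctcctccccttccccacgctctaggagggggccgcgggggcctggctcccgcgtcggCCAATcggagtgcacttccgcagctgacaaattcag

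Hspa1a, chr17:34972157-34972406, minus strand: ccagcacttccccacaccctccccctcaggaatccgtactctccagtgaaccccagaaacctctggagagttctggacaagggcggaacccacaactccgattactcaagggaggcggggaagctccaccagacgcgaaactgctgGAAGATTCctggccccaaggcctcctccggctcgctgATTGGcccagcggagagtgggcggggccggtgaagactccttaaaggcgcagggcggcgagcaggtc

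Hspa1b, chr17:34959239-34959488, minus strand: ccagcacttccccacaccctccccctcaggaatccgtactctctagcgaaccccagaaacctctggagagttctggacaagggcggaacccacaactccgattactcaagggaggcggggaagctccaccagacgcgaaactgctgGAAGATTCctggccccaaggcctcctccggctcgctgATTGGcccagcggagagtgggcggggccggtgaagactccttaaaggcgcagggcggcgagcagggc

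A CRE core was found before Fos, Atf3 and Dusp1, against 6.47% of all 32851 promoters of the same length. The Fos match starts 66 bases before the start of transcription, followed by a TATA box at 33 bases, which 12.4% of promoters hold. Dusp1 has a match 191 bases before its start and a palindromic one, matched on both strands, at 143 and 141 bases. Pairs of heat shock units were found before Hspa1a and Hspa1b, in both 104 bases before the start, and before Jun, against 6.69% of promoters. A CCAAT box (33.8% of promoters) precedes Jun, Junb, Hspa1a and Hspa1b, and in both HSP70 genes it starts 67 bases before transcription. The 250 bases of Hspa1a and Hspa1b were identical at 247 positions (98.8%). Neither an AP-1 site TGANTCA (6.75% of promoters) nor a CArG box, the site of serum response factor (1.47%), occurred in these windows of the 8 genes. The GC box GGGCGG, not capitalised above, overlaps none of the capitals and was found before 7 of the 8 genes, all but Junb, against 32.7% of promoters. A match describes the letters only, and sequence farther upstream was not searched.

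The AP-1 genes were considered first. AP-1 is a dimer of a Jun protein with a Fos protein or another Jun, and Fos and Fosb encode partners that need a Jun protein to bind DNA. Jun (chromosome 4, 95049036 to 95052222) stood at 17.1 FPKM in PKI, 10.1 in MKI, 18.3 in HOMO and 16.9 in WT. It was the highest of the 10 genes in MKI, HOMO and WT, and its MKI level was 1.67-fold lower than WT (log2 difference -0.71). Junb (chromosome 8, 84976909 to 84978748), a relative that can restrain Jun, was at 0.920 FPKM in PKI, 0.101 in MKI, 0.871 in HOMO and 1.01 in WT. In MKI it was 9.98-fold lower by the linear ratio and 1.33 lower on the log2 scale with the pseudocount, while its levels in PKI and HOMO were near that in WT.

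Fos (chromosome 12, 85473890 to 85477274), the classical marker of recent stimulation, was low in every column. It stood at 0.440 FPKM in PKI, 0.138 in MKI, 0.693 in HOMO and 0.345 in WT. The HOMO level was 2.01 times that of WT and the log2 difference was 0.50, while MKI lay 0.40 below WT. Fosb was at 0.0164 FPKM in PKI, 0.110 in MKI and 0.0210 in HOMO and was listed at 0 in WT, so no fold is given. Fosb was the only one of the 10 with its highest value in MKI. In none of the columns did Fos or Fosb come near the level of Jun.

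Egr1 and Atf3 encode transcription factors, Ier2 a nuclear regulator of unclear mechanism, and Dusp1 a phosphatase that switches off the MAP kinases. Ier2 (chromosome 8, 84661331 to 84662852) was at 17.3 FPKM in PKI, 4.54 in MKI, 17.9 in HOMO and 15.0 in WT. MKI was therefore 3.31-fold lower than WT, a log2 difference of -1.62, whereas PKI and HOMO lay 0.20 and 0.24 above it. Dusp1 (chromosome 17, 26505591 to 26508472) was at 7.02 FPKM in PKI, 3.07 in MKI, 10.1 in HOMO and 9.16 in WT. It was 2.98-fold lower in MKI than WT (-1.43), and it was the member with the lowest log2 difference in PKI (-0.36).

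Egr1, a zinc finger factor induced by the same signals as Fos, differed least between columns. It stood at 0.980 FPKM in PKI, 0.904 in MKI, 1.19 in HOMO and 1.20 in WT, so that no column was more than 1.33-fold below WT. Atf3 (chromosome 1, 191170296 to 191183333), which is induced by the integrated stress response as well as by mitogens, was at 0.914 FPKM in PKI, 0.137 in MKI, 0.606 in HOMO and 0.812 in WT. The MKI level was 5.91-fold lower than WT by the linear ratio, and -1.04 on the log2 scale, just past 2-fold.

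Hspa1a (chromosome 17, 34969359 to 34972156) and Hspa1b (34956429 to 34959238) encode nearly the same inducible HSP70 chaperone, and their starts lie 12918 bases apart. Reads of near-identical copies may be split between them, so their separate values are uncertain. Hspa1b was at 0.893 FPKM in PKI, 0.695 in MKI, 2.47 in HOMO and 1.04 in WT. HOMO was 2.37 times WT (log2 difference 0.95), 2.76 times PKI (1.09) and 3.55 times MKI (1.31). Hspa1a was at 0.231 FPKM in PKI, 0.396 in MKI, 0.623 in HOMO and 0.372 in WT, also highest in HOMO. Summed, the pair reached 1.12 FPKM in PKI, 1.09 in MKI, 3.09 in HOMO and 1.41 in WT, which left HOMO 0.91 above WT on the log2 scale. The Hspa1b difference between HOMO and WT passed 2-fold with a pseudocount of 0.1 (1.17), TPM scaling (1.13) and TMM scaling (1.00), and lay between 0.77 and 1.19 over the alternatives.

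PKI against WT shows what goes with cassettes on the copy from which Gtl2 is normally silent. None of the 10 genes was 2-fold higher or lower in PKI, against 0.700% and 1.45% of 13279 filtered genes. Of the 10, 5 lay above WT and 5 below, with differences between -0.36 (Dusp1) and 0.20 (Ier2). Their median was -0.04, beside -0.07 over all filtered genes and 0.09 over the 1447 filtered genes whose RefSeq span is under 5 kb. All 10 thus lay closer to WT in PKI than the 2-fold line.

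In HOMO, with cassettes on both copies, no member was 2-fold away from WT on the log2(FPKM + 0.5) scale, although Hspa1b (2.37 times WT) and Fos (2.01 times) were so by the linear ratio; on the log2 scale 0.670% of filtered genes passed upward and 0.783% downward. Above WT lay 7 of the 10, and the median was 0.12, beside -0.06 over all filtered genes and -0.01 over those under 5 kb. By that difference Hspa1b (0.95), Fos (0.50) and Hspa1a (0.37) had the 3 highest differences. Among filtered genes with a span of 2 to 5 kb, the Hspa1b difference exceeded 98.9% and that of Fos 96.3%, with Fos at a level below the filter. Hspa1b itself reached 1 FPKM only in HOMO (2.47) and WT (1.04). It thus passed the filter partly through its high HOMO level, and its percentile is a description only. Junb (-0.14), Atf3 (-0.25) and Egr1 (-0.01) lay below WT. HOMO and PKI share the paternal insertion, and between them Hspa1b was past 2-fold (1.09) and the other 9 were not, against 1.55% of filtered genes higher and 1.32% lower. This call was lost with a pseudocount of 1 and with quantile normalization.

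**Figure D2:**
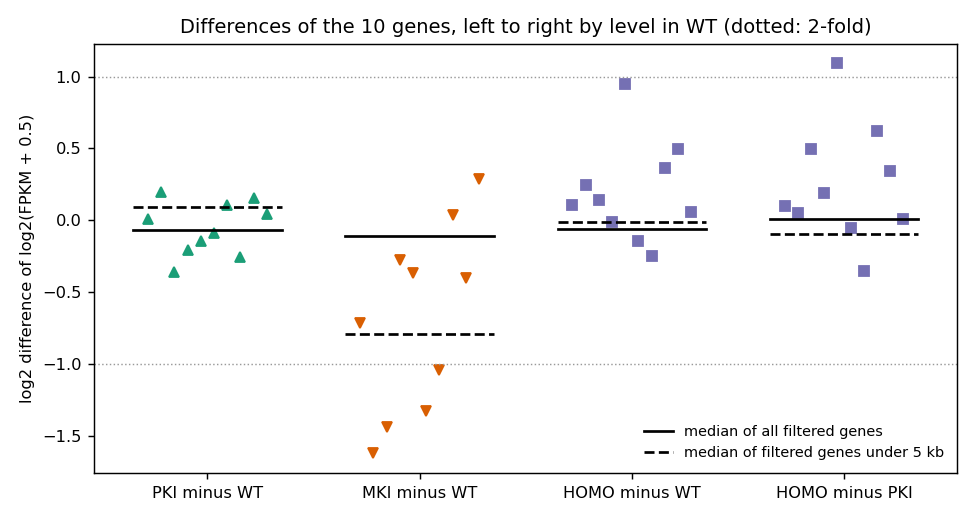
Log2 differences of the 10 genes for PKI, MKI and HOMO against WT and for HOMO against PKI, each point a gene, in order of WT level from left to right. Solid and dashed lines are the medians of all filtered genes and of those under 5 kb (-0.11 and -0.79 in MKI against WT), dotted lines mark 2-fold, and only MKI has points below -1 (Ier2, Dusp1, Junb and Atf3).

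The comparison of MKI with WT, the loss of the maternal transcripts on a wild-type paternal background, held the low values. Ier2, Dusp1, Junb and Atf3 were 2-fold lower, 4 of the 10 genes, and none was 2-fold higher, against 19.1% of all filtered genes lower and 1.22% higher. Junb and Atf3 did not pass the filter, and without it 11.5% of all genes were 2-fold lower. Below WT lay 8 of the 10, all but Hspa1a (0.04) and Fosb, which WT lists at 0. The median was -0.56, beside -0.11 over all filtered genes. The MKI column stood apart across the whole table, with Pearson's r of the log2 columns between 0.864 and 0.882 against each other column, where the other pairs gave 0.961 to 0.975 (13279 genes, which are not replicates).

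Short genes in general were lower in MKI. Of the 1447 filtered genes under 5 kb, 41.1% were 2-fold lower than WT and their median difference was -0.79, which is below the median of the 10 members. Among 8 members under 5 kb, 3 were 2-fold lower. By span, the median was -1.03 for 339 genes under 2 kb, -0.71 for 1108 genes of 2 to 5 kb, -0.44 for 3986 genes of 5 to 20 kb, 0.05 for 5230 genes of 20 to 100 kb and 0.14 for 1876 genes over 100 kb. In PKI the same bins had medians of 0.22, 0.06, -0.01, -0.10 and -0.21, and in HOMO they lay between -0.11 and -0.01. Short genes were therefore lower in MKI, slightly higher in PKI, and near the rest in HOMO.

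Set beside genes of like span, the 5 members that passed the filter lay on both sides. In MKI against WT, Ier2 (1.52 kb) was at the 29.5th percentile of genes under 2 kb, and Dusp1 (2.88 kb) at the 20.04th of genes of 2 to 5 kb. Jun (3.19 kb) was at the 49.8th percentile of its bin, near the middle. Hspa1b and Egr1 were in the upper part of the same bin, at the 66.0th and 69.0th percentile. The other 5 stood so low that the pseudocount of 0.5 shrinks their differences and sets where they fall. Junb (1.84 kb) was at percentile 38.3 of its bin with that pseudocount and at 14.2 with 0.1. Atf3, the longest member at 13.0 kb, was at percentile 26.5 of genes of 5 to 20 kb with 0.5 and at 7.75 with 0.1. When the median difference of genes in the same span class was subtracted (10 classes of span), no member was 2-fold lower in MKI at the pseudocount of 0.5, and the median of the 10 came to 0.25, of the opposite sign. Ier2 was then at -0.81, Atf3 at -0.70, Dusp1 at -0.62 and Junb at -0.52. Jun (0.10), Fos (0.41), Hspa1b (0.44) and Egr1 (0.53) then lay above 0, the opposite of their sign without it. With both the subtraction and a pseudocount of 0.1, a combination chosen after seeing the data, Atf3 (-1.59) and Junb (-1.56) were 2-fold lower, while Ier2 (-0.79) and Dusp1 (-0.64) were not. The lower levels of Ier2 and Dusp1 therefore came under 2-fold beside genes of like span at both pseudocounts, and those of Junb and Atf3 depended on the pseudocount.

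**Figure D3:**
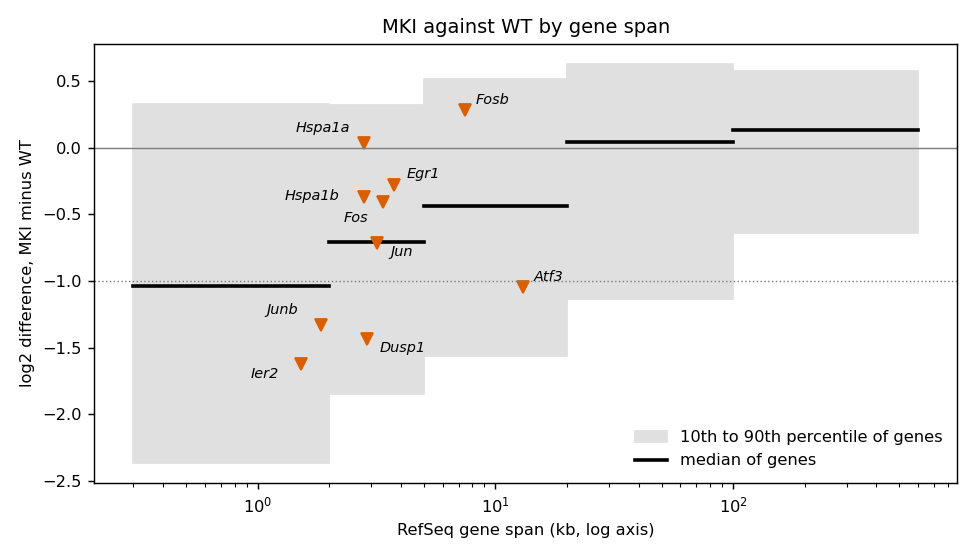
Log2 difference of MKI minus WT against RefSeq gene span (log axis). Black lines and grey bands are the median and the 10th to 90th percentile of filtered genes in 5 bins of span (the outer bins are drawn to fixed ends), and triangles are the 10 genes, all drawn with a pseudocount of 0.5. That pseudocount shrinks the differences of Fos, Fosb, Junb, Atf3 and Hspa1a, which are below the filter, toward 0, so their place in the band depends on it. The bin medians go from -1.03 under 2 kb to 0.14 over 100 kb.

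HOMO embryos also carry the cassettes on the maternal copy, and the low levels were not seen there. Relative to MKI, Ier2 (1.87), Dusp1 (1.57), Hspa1b (1.31) and Junb (1.19) were 2-fold higher in HOMO, 4 of 10 genes against 19.7% of filtered genes and 41.3% of those under 5 kb, and none was lower (3.64% of filtered genes). Relative to PKI, Ier2 (-1.82), Junb (-1.24), Atf3 (-1.15) and Dusp1 (-1.07) were 2-fold lower in MKI, 4 of 10 against 16.6% of filtered genes and 43.0% of those under 5 kb, and none was higher (2.55%). Junb and Atf3 are below the filter, and without it 10.1% of all genes were 2-fold lower in MKI than PKI. MKI against WT and HOMO against PKI both set a maternal insertion against none, and they share no column. Ier2 differed by -1.62 in the first and 0.05 in the second, Dusp1 by -1.43 and 0.50, Junb by -1.33 and -0.05 and Atf3 by -1.04 and -0.35. The microRNAs of the domain come from the maternal transcripts and served as a check of the genotypes. Over 6 abundant ones, the ratio to WT was 0.595 to 1.22 in PKI, 0.0172 to 0.0504 in MKI and 0.0286 to 0.0417 in HOMO.

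Other immediate early genes gave a similar picture. Of 25 filtered genes on this list none passed 2-fold against WT in PKI or in HOMO, while 7 were 2-fold lower in MKI and none higher (medians -0.06 in PKI, -0.59 in MKI and -0.08 in HOMO). Socs3, the cytokine feedback inhibitor, stood at 3.06 FPKM in PKI, 0.488 in MKI, 2.84 in HOMO and 2.63 in WT, and Csrnp1, a nuclear factor induced by AXIN1 in human cells, at 1.55, 0.230, 2.22 and 1.64 FPKM in the same order. The orphan nuclear receptor gene Nr4a1 was at 1.04 FPKM in PKI, 0.373 in MKI, 1.56 in HOMO and 1.43 in WT. Btg2, an antiproliferative gene, was at 10.8 FPKM in PKI, 6.55 in MKI, 13.2 in HOMO and 14.9 in WT. The share lower in MKI is to be read against the 19.1% of all genes and the 41.1% of short genes given above.

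Counts for this and the following lists are likewise to be read against 19.1% of all filtered genes and 41.1% of short ones lower in MKI. Among 9 filtered partners of AP-1 proteins, 3 were 2-fold lower in MKI, none was higher, and none passed 2-fold in PKI or HOMO (medians -0.01 in PKI, -0.72 in MKI and -0.10 in HOMO). Jund, the member of the Jun family that is expressed without a stimulus, was at 46.7 FPKM in PKI, 3.93 in MKI, 33.2 in HOMO and 42.4 in WT, a larger MKI difference (-3.28) than that of any of the 10 genes. Batf3 was at 1.14 FPKM in PKI, 0.121 in MKI, 0.861 in HOMO and 1.15 in WT. The small Maf genes Mafg (-1.19) and Maff (-0.79) were below WT in MKI as well.

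Of 12 upstream factors and kinases, 4 were 2-fold lower in MKI (19.1% of all filtered genes) and none passed 2-fold in PKI or HOMO, while the medians were -0.11 (PKI), 0.10 (MKI) and -0.03 (HOMO). Srf, which encodes serum response factor, was at 10.8 FPKM in PKI, 2.63 in MKI, 9.99 in HOMO and 10.01 in WT. Its cofactor gene Mkl1 was lower in MKI too (-1.60) although it spans 178 kb, and so were the ternary complex factor gene Elk1 (-1.33) and the ERK1 gene Mapk3 (-1.03). Of 12 MAP kinase phosphatase, Sprouty and Egr corepressor genes, 3 were 2-fold lower in MKI, none was higher and none passed in the other columns. Dusp2 was at 1.65 FPKM in PKI, 0.150 in MKI, 1.22 in HOMO and 1.20 in WT, and Nab2, which encodes a corepressor of Egr proteins, at 8.84, 2.24, 7.41 and 6.04 FPKM in that order. Dusp8 had a log2 difference of -1.27 and Dusp5 of -0.93 in MKI against WT.

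Other chaperone genes, HSP70 relatives among them, were mostly within 2-fold of WT. Of 18 further targets of heat shock factor 1, 2 were 2-fold lower in MKI (19.1% of all filtered genes) and 1 was higher in HOMO (0.670%; medians 0.14 in PKI, 0.21 in MKI and -0.06 in HOMO). The gene higher in HOMO was Hmox1, heme oxygenase, at 10.4 FPKM in PKI, 6.72 in MKI, 16.7 in HOMO and 7.71 in WT, which oxidative stress and heme also induce. In HOMO 10 of the 18 lay below WT and 15 below PKI, so most did not share the higher Hspa1b level of that column. The small heat shock protein gene Hspb1 was at 27.9 FPKM in PKI, 8.09 in MKI, 15.3 in HOMO and 17.2 in WT. Fkbp4, a cochaperone of steroid receptors, was at 109.8 FPKM in PKI, 41.8 in MKI, 90.1 in HOMO and 95.2 in WT, and the collagen chaperone gene Serpinh1 lay 0.84 below WT in MKI.

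Of 14 heat shock factors and constitutive chaperones, 1 was 2-fold lower in MKI, 3 lay below WT there in all, and none passed 2-fold in PKI or HOMO. The gene lower in MKI was Hsf1 itself, the factor that drives the heat shock response, at 16.2 FPKM in PKI, 9.15 in MKI, 21.1 in HOMO and 19.0 in WT. Hsp90b1, of the endoplasmic reticulum, was at 207 FPKM in PKI, 383 in MKI, 158 in HOMO and 205 in WT, and Hspa13 and Bag1 lay 0.81 and 0.78 above WT in MKI. In the integrated stress response list, 3 of 10 filtered genes were 2-fold lower in MKI, and none passed in PKI or HOMO. Ddit4, an inhibitor of mTORC1, stood at 22.5 FPKM in PKI, 1.94 in MKI, 15.7 in HOMO and 19.2 in WT. Atf5 (-2.14), Sesn2 (-1.16) and Atf4 (-0.99), which encodes the activator of Atf3, were lower in MKI than WT as well.

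The short housekeeping genes and the genes listed as single-exon show what genes outside these pathways did. Of 27 short ribosomal, mitochondrial and metabolic genes, 8 were 2-fold lower in MKI and none in PKI or HOMO, the medians being 0.44 (PKI), -0.38 (MKI) and 0.06 (HOMO). The ribosomal protein gene Rps14 was at 1185 FPKM in PKI, 75.5 in MKI, 591 in HOMO and 745 in WT, and Rps19 (-2.79), Rplp1 (-2.48) and Rpl8 (-1.98) were also far lower in MKI. Ribosomal protein genes have many processed copies, so their values are uncertain. The single-exon list was chosen by name and exons were not counted. Of its 21 filtered genes, 3 of which are also in the lists above, 9 were 2-fold lower and 1 higher in MKI (1.22% of all filtered genes higher). In PKI 1 was lower, and in HOMO 2 were lower and 1 higher. Ier5l, a relative of the immediate early gene Ier5, was at 7.15 FPKM in PKI, 1.05 in MKI, 5.22 in HOMO and 5.50 in WT, and the protocadherin gene Pcdh8 at 3.38, 1.59, 4.67 and 6.74 FPKM in that order. Sox2, a neural progenitor factor, had another pattern, at 3.21 FPKM in PKI, 11.1 in MKI, 0.734 in HOMO and 9.51 in WT.

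**Figure D4:**
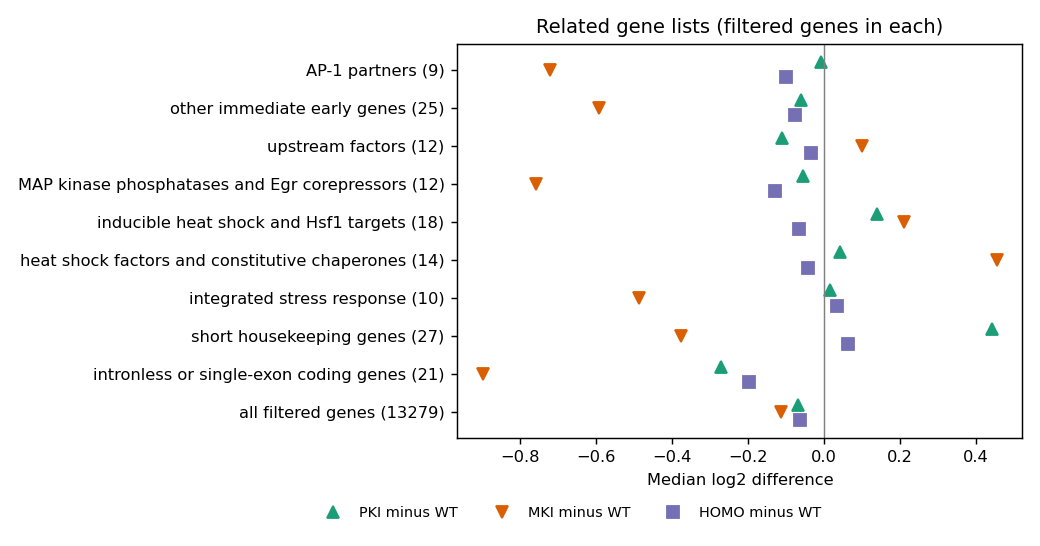
Median log2 difference from WT of the filtered genes in 9 related lists and of all filtered genes, for PKI, MKI and HOMO (number of genes in brackets). In MKI the median of the single-exon list (-0.90) is the lowest of the 9. Those of AP-1 partners (-0.72), other immediate early genes (-0.59) and phosphatases and corepressors (-0.76) also lie below that of all genes (-0.11). So do those of the integrated stress response (-0.49) and short housekeeping (-0.38) lists. The medians of the upstream factors (0.10) and the 2 chaperone lists (0.21 and 0.46) lie above it.

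MicroRNAs made from inducible genes were also described. How far their levels follow recent transcription of those genes was not tested. Depth was known here, since the values are whole multiples of 1 read, with 10072670 reads in PKI, 8638401 in MKI, 8016848 in HOMO and 8405962 in WT. Intervals below are exact 95% intervals on reads and cover counting error only. miR-132 and miR-212 come from 1 transcript that CREB induces in neurons, and their 3p strands are shown because they share a seed (bases 2 to 8, in capitals), while the 5p strands do not. The sequences are from RefSeq on GRCm38.p6.

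miR-132-3p, chr11:75173723-75173744, plus strand: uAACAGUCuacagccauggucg

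miR-212-3p, chr11:75173443-75173464, plus strand: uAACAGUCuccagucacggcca

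miR-132-5p, chr11:75173686-75173707, plus strand: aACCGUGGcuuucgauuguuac

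miR-212-5p, chr11:75173403-75173425, plus strand: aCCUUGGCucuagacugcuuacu

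miR-132-3p stood at 26.0 RPM (reads scaled to a common total) in PKI, 24.8 in MKI, 54.5 in HOMO and 28.3 in WT, and HOMO was 1.93 times WT (interval 1.64 to 2.26). miR-132-5p was at 8.94 RPM in PKI, 12.3 in MKI, 46.5 in HOMO and 18.6 in WT, or 2.51 times WT in HOMO (2.07 to 3.04) and 0.481 times in PKI (0.367 to 0.628). miR-212-5p was 1.72 times WT in HOMO (1.46 to 2.03), and for miR-212-3p, with 38 reads in HOMO and 26 in WT, the interval of the ratio (0.907 to 2.63) held 1. Over 10 such microRNAs, all ratios of HOMO to WT were above 1, with a median of 1.46, and 8 intervals lay wholly above 1. The 10 are not separate readouts, since the miR-132 and miR-212 strands among them come from 1 transcript. Of all 505 filtered microRNAs 57.2% had a ratio above 1 in HOMO, 44.0% in MKI and 49.9% in PKI. The 505 include microRNAs of the domain, which the genotype makes low in MKI and HOMO and which lower the share in those columns. For MKI the median of the 10 was 1.23, with 6 intervals wholly above 1 and 2 wholly below, and for PKI it was 1.02, with 3 above and 3 below. miR-155-5p was highest in MKI, at 73.4 RPM or 1.52 times WT (1.34 to 1.73), and in HOMO it was 1.04 times WT with an interval that held 1. miR-221-3p and miR-222-3p were nearly level between knock-in columns, miR-221-3p at 504 RPM (PKI), 477 (MKI) and 512 (HOMO), against 375 in WT. Of the 505, 2.18% were 2-fold higher in HOMO, 1 of these 10 being among them, and their median ratio to WT was 1.05. For PKI and MKI the corresponding shares of filtered microRNAs 2-fold higher were 0.792% and 2.57%, with none of the 10 among them. The median ratio of all 505 to WT was 1.00 in PKI and 0.948 in MKI. Since RPM divides by the column's total, the loss of domain reads in MKI and HOMO raises the RPM of other microRNAs.

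**Figure D5:**
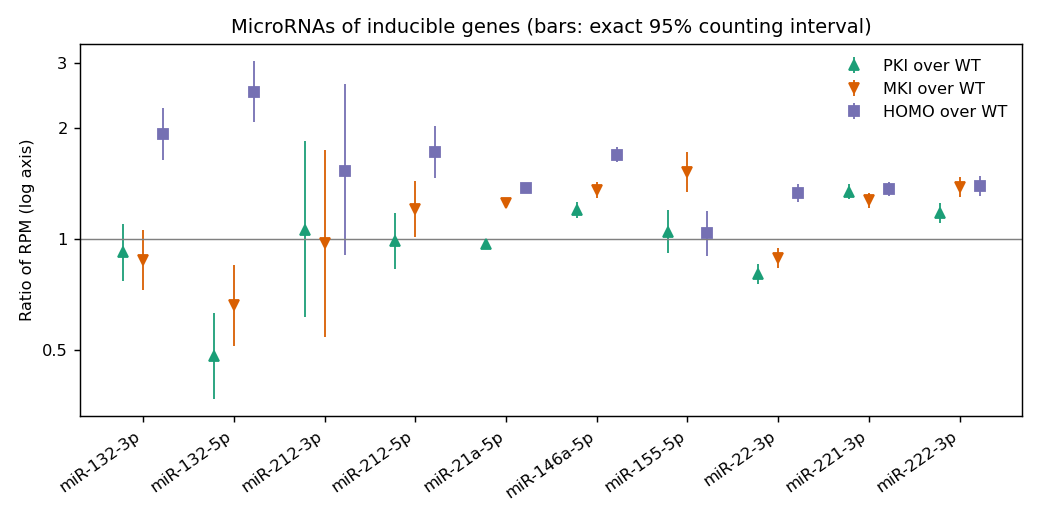
Ratio of RPM to WT (log axis) for 10 microRNAs of inducible genes in PKI, MKI and HOMO, with exact 95% counting intervals. The HOMO point of miR-132-5p lies highest, at 2.51, and its PKI point lowest, at 0.481.

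Markers of cell types were summed to describe the tissue behind these columns. Of 8 markers that define tissues of the embryo proper, 8 were at 1 FPKM or more in PKI, MKI and WT and 7 in HOMO, while 10 trophoblast markers summed to 2.59 FPKM in PKI, 1.87 in MKI, 3.81 in HOMO and 2.16 in WT. Among the trophoblast markers Prl3d1, Psg21, Gcm1, Syna and Synb were at 0 in at least 1 column. Macrophages hold much immediate early mRNA once tissue is disturbed. Their marker sums (10 genes, none at 0) were 33.4 FPKM in PKI, 16.6 in MKI, 32.7 in HOMO and 29.6 in WT. The sum was thus lowest in the same column as Ier2 and Dusp1. Filtered genes under 5 kb were in general lower in that column too (median -0.79 against WT), and the markers were not compared with genes of like span. The 8 embryo markers themselves summed to 229 FPKM in PKI, 105 in MKI, 287 in HOMO and 324 in WT. The 8 endothelial markers, none at 0, summed to 47.2 FPKM in PKI, 60.9 in MKI, 70.6 in HOMO and 64.9 in WT, and the 6 red cell markers, none at 0, to 61.5, 100.7, 138.7 and 111.4 FPKM in that order. The 7 genes listed for yolk sac endoderm, of which Apoa4, Amn and Spink1 were at 0 in some column, summed to 36.9 FPKM in PKI, 84.2 in MKI, 92.6 in HOMO and 82.7 in WT. Only 3 of the 7 were at 1 FPKM or more in each column, and which tissue gave their signal was not tested. The 6 neutrophil and mast cell genes, of which Elane was at 0 in PKI and MKI, summed to 11.3, 13.2, 18.5 and 10.9 FPKM. The part of these cells in the results was not tested, and in whole embryos fewer cells of a type and less RNA per cell cannot be told apart.

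Genes with the pattern most like that of Fos were sought among 8587 genes averaging 5 FPKM or more, by the distance between their 3 log2 differences from WT (PKI, MKI and HOMO). The closest were Wdr55 (distance 0.08), Flot1 (0.08), Sept5 (0.10), Cnpy3 (0.12) and Rps6kb2 (0.14). Fos itself lies under 1 FPKM, so its differences are shrunk by the pseudocount and those of the genes searched hardly are. Its linear ratios to WT were 1.28 (PKI), 0.401 (MKI) and 2.01 (HOMO), and the likeness holds on the log2(FPKM + 0.5) scale only. Closest to Hspa1b were Glrx2 (0.31), Sft2d2 (0.35), Timm10 (0.42), Prkd2 (0.44) and Haus4 (0.44), under the same limit. With 3 differences from 4 columns such likeness is a description of these columns only.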

How the data were processed

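Whole embryos of 4 genotypes were sampled. Per the labels' protocols, poly(A) RNA was selected with oligo(dT) beads and sequenced as strand-marked paired-end libraries. The tools listed, per the submitters' processing notes, include StringTie 1.3.4d, HISAT2 2.0.4 and cutadapt 1.9, with the build GRCm38. The authors' deposited mRNA values are treated as FPKM: the header names no unit, StringTie is named and column sums differ; the depth behind them is unknown. The deposited microRNA values are RPM, and all were whole multiples of 1 read within 0.02 of a read. A count of 0 allows up to 3 reads, which is 0.298 to 0.374 RPM. How the small RNA libraries were processed is not stated in the labels.

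Columns carry a genotype and no replicate number, so the limma fit foreseen could not be made and 2-fold differences on the log2(FPKM + 0.5) scale were counted instead. Of 22036 Ensembl IDs 22022 had a symbol; 40 entries sharing 20 symbols were summed. Background genes had 1 FPKM or more in at least 2 columns (13279), and microRNAs 10 RPM or more in 2 columns (505). Spans are RefSeq gene spans of the same build, available for 94.4% of these genes. Named were all 10 members, up to 4 genes per list with the largest difference from WT and the 5 genes nearest in pattern to Fos and Hspa1b. The members, lists and rules were chosen with earlier results of these data known. Analyses used Python 3.11.15, numpy 2.4.6, pandas 2.3.3, scipy 1.17.1 and Biopython 1.88, and were tested on simulated data. The long non-coding table was not used here. Alternatives are described in the closing section.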

Additional observations from a re-analysis of the deposited data

Results flagged for a closer look

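For 6 of the 10 genes, the maternal insertion went with a lower level on a wild-type paternal copy (MKI against WT) and with a higher one on a paternal copy that also carried it (HOMO against PKI). The second difference exceeded the first by 1.93 on the log2 scale for Dusp1, 1.67 for Ier2, 1.46 for Hspa1b, 0.81 for Jun, 0.75 for Fos and 0.47 for Egr1. For genes chosen by these signs the excess is above 0 by construction. Among the members without this pair of signs it was 1.28 for Junb, 0.69 for Atf3, 0.58 for Hspa1a and -0.27 for Fosb. Of all 13279 filtered genes 34.3% had the same pair of signs, and of the 1447 under 5 kb 33.7%. The median of the second difference less the first was 0.78 over the 10 genes, 0.17 over all filtered genes and 0.73 over those under 5 kb. These contrasts compare single columns and the difference was not tested. With span classes subtracted, Jun, Fos, Egr1 and Hspa1b lay above 0 in MKI against WT. The direction was read from signs alone, and some differences were small, such as 0.05 for Ier2 in HOMO against PKI.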

How the results depend on the processing

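No paired analysis was possible because each table has 1 column per genotype and no replicate number, so leaving out replicates was not possible either. A change of more than 0.25 in a log2 median, or of 1.5 times in a count, was counted as a move. With the median of genes in the same span class subtracted, members past 2-fold were 0 in MKI against WT, 1 in HOMO against MKI (Ier2, higher) and 1 in MKI against PKI (Hspa1a, higher in MKI, none of those lower before), with medians of 0.25, 0.21 and 0.21. With a pseudocount of 0.1 as well, chosen after seeing the data, they were 3 in MKI against WT (Junb and Atf3 lower, Fosb higher), 1 in HOMO against WT and 2 in HOMO against PKI, and the medians were 0.090 in MKI against WT and -0.0052 in MKI against PKI. With a pseudocount of 0.1 the medians were -0.82 in MKI against WT, 1.63 in HOMO against MKI and -0.96 in MKI against PKI, and members past 2-fold were 1 in HOMO against WT (Hspa1b) and 2 in HOMO against PKI (Hspa1a and Hspa1b). With a pseudocount of 1 the counts were 2 in MKI against WT (Ier2 and Dusp1), 0 in HOMO against PKI and 1 in MKI against PKI. A filter at 5 FPKM left 3 members, with counts of 2 in MKI against WT, 2 in HOMO against MKI, 0 in HOMO against PKI and 2 in MKI against PKI, and medians of -1.43, 1.57 and -1.07 in those that involve MKI; fewer genes were counted there by construction. Quantile normalization gave 0 in HOMO against PKI, TMM scaling gave 1 in HOMO against WT, and TPM scaling gave 1 in HOMO against WT and 2 in HOMO against PKI, with a median of 1.41 in HOMO against MKI; the cause was not tested. The share of all genes 2-fold lower in MKI than WT lay between 11.5% without a filter and 22.0% with a pseudocount of 0.1. None of the 4 genes called in MKI against WT changed sign under these alternatives. Low levels limit Fos, Fosb, Junb, Atf3 and Hspa1a most. A check on promoter base composition was not run, since 75.4% of filtered genes had a promoter sequence, under the 80% needed for it not to be void.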
